A study of Mus musculus with 6 samples.

Results

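Ddit4l, Lrrfip1 and Ifrd1 are 3 genes whose transcripts were higher in mouse embryos heterozygous for Tcof1 than in wild-type littermates and which are not counted among the classical targets of the transcription factor p53. The genes were chosen from that same genotype contrast, so their genotype differences are given here as a description, without a test. Every probe set annotated with exactly 1 of these symbols was taken, which gave 7 probe sets for 3 genes, out of 34945 probe sets with a single symbol for 18193 genes. Ddit4l and Lrrfip1 each had 3 probe sets and Ifrd1 had 1, and all 7 passed the filter on low signals. Ddit4l 1451751_at passed only through its heterozygotes, since the mean log2 value of its wild types lay below the cut of that filter.

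The samples were whole embryos at embryonic day 8.5, 3 wild type and 3 Tcof1+/-, each on its own Affymetrix Mouse Genome 430 2.0 array. Tcof1 encodes treacle, a nucleolar protein needed for the transcription and processing of ribosomal RNA, and loss of 1 copy in humans causes Treacher Collins syndrome. Mouse strain and the structure of the altered allele are not stated in the labels. On this array several short oligonucleotides make up a probe set, which reports a transcript as 1 signal in arbitrary units. Signals are compared between embryos within a probe set only, since probe sets differ in how well they bind. In RNA from whole embryos, fewer cells of a type and less RNA per cell cannot be told apart.

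As background, Ddit4l (also called REDD2) is a relative of the stress-induced gene Ddit4 (REDD1), and both proteins restrain mTOR complex 1, the kinase complex that promotes protein and ribosome synthesis, by acting through the TSC1-TSC2 complex. Lrrfip1 encodes a protein that binds nucleic acids, can repress GC-rich promoters, takes part in sensing of cytosolic nucleic acid through beta-catenin, and was named for binding to Flii, an actin regulator of the gelsolin family. Ifrd1 (also called Tis7 or PC4) encodes a transcriptional coregulator that works with histone deacetylases of the Sin3 complex and is best known in muscle differentiation.

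The promoter windows of the 3 genes are shown because their transcripts moved in the same direction, so that the sequence at each start can be set side by side. They are RefSeq windows of 300 bases in GRCm38.p6, from 250 bases before to 50 bases after the annotated start, written 5′ to 3′ on the strand of the gene, and all 3 genes had at least 1. The Ddit4l window is at chr3:137623422-137623721 (plus strand), Lrrfip1 has windows at chr1:90998477-90998776 and chr1:91053194-91053493 (plus strand), and that of Ifrd1 is at chr12:40223140-40223439 (minus strand). Capitals mark matches to the motifs searched.
Ddit4l: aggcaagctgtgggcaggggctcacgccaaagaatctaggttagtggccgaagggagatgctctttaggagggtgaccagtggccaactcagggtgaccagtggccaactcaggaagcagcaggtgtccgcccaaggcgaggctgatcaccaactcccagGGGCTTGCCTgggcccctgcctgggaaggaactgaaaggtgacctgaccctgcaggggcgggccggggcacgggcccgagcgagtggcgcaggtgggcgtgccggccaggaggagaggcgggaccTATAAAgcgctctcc
Lrrfip1, upstream start: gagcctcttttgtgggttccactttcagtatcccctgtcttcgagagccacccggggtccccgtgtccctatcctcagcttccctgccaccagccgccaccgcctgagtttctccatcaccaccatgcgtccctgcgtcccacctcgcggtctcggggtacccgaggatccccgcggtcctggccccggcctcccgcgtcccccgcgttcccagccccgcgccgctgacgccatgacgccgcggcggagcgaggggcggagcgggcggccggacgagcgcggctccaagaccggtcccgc
Lrrfip1, downstream start: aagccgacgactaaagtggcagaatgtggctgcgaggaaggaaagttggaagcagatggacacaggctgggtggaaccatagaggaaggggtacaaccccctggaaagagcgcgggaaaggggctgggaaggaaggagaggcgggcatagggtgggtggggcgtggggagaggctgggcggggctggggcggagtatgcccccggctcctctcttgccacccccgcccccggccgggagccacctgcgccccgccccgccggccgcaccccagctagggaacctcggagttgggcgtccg
Ifrd1: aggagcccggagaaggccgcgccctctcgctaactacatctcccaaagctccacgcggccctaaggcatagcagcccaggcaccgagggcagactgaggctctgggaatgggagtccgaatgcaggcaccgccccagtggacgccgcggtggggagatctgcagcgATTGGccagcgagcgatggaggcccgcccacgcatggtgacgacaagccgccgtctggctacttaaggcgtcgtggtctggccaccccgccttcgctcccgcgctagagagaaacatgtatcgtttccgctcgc

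The motifs searched, on both strands, were the p53 half-site, the ATF4 composite element TGATGNAA, the cyclic AMP response element TGACGTCA, the E-box CACGTG, the CCAAT box and the TATA box TATAAA. None of the matches found overlapped another. The Ddit4l window held 1 match to the p53 half-site, GGGCTTGCCT, 90 bases before the annotated start, a motif found in 8.36% of all 32851 windows. It also held TATAAA, 35 bases after the annotated start, found in 13.6% of windows. The Ifrd1 window held 1 CCAAT box, on the opposite strand, 84 bases before the start, found in 37.4% of windows. Neither Lrrfip1 window held a match. Matches to the ATF4 element, the cyclic AMP response element and the E-box, present in 3.97%, 1.79% and 7.15% of all windows, were absent from the 4 windows. GC content was 65.7% for Ddit4l, 72.0% and 68.7% for Lrrfip1 and 65.7% for Ifrd1, against a median of 52.7% over all windows. CpG dinucleotides numbered 14 in the Ddit4l window, 36 and 21 in those of Lrrfip1 and 29 in that of Ifrd1, against a median of 7. A match is a description of letters and shows no binding.

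Arrays had median signals of 21.0 to 25.6 and equal trimmed means, and pairs of arrays correlated between 0.952 and 0.959 on the log2 scale. Tcof1 itself, the check of the labels, had a signal of 387 ± 5.89 (SD, n = 3) in wild types and 211 ± 27.7 (SD, n = 3) in heterozygotes on its brightest probe set. Replicates 1 and 2 of both genotypes were scanned on a first day and replicate 3 of both on a second, and no fluidics module held both genotypes, so module and genotype cannot be told apart. Of 33 markers in 10 lists of cell types, 2 had no probe set of their own. The summed signal of 4 neural tube markers was 1502 to 1743 in wild types and 1165 to 1422 in heterozygotes, and that of 3 neural crest markers was 375 to 547 against 270 to 314. Each of the 4 neural tube markers was also apart on its own. Each neural crest marker overlapped on its own: Sox10 (94.8 to 128 against 54.7 to 104), Foxd3 (44.7 to 62.7 against 29.7 to 46.3) and Tfap2a (202 to 365 against 169 to 207). The summed signals of the other lists overlapped between genotypes. Tpbpa, the trophoblast marker with a probe set, was not above the bacterial control probe sets on any array. The list of maternal blood cells summed to 7.27 to 18.9 in wild types and 15.6 to 36.7 in heterozygotes. Of its 3 markers, Ptprc and Cd3e were not above the bacterial controls on any array. S100a8, the third, a gene of neutrophils and monocytes, was 4.74, 1.98 and 4.10 in the wild types, all below the controls, and 13.87, 10.98 and 23.07 in the heterozygotes, all above them, without overlap. The Gapdh control, whose 3′ probes exceed its 5′ probes more when RNA is degraded, gave a log2 difference of 0.841 to 1.04 in wild types and 0.682 to 0.806 in heterozygotes. The part of these neural markers, of S100a8 and of RNA quality in the differences described here was not tested.

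Ddit4l was the gene with the largest difference among the 3. On its brightest probe set (1444139_at) the signal was 49.4, 59.7 and 47.6 in wild-type embryos 1, 2 and 3, and 170, 227 and 146 in heterozygous embryos 1, 2 and 3. The lowest heterozygote lay 2.44-fold above the highest wild type, and the groups did not overlap. The means were 52.2 ± 6.56 and 181 ± 41.8 (SD, n = 3 per genotype), a log2 difference of 1.74 with a standard error of 0.19, or 3.34-fold. Differences and folds are on the scale log2(signal + 1.87), which understates the change of dim probe sets. The embryos with the highest and lowest heterozygous signal differed by 0.64 on that scale, and those of the wild type by 0.32.

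The other probe sets of Ddit4l gave the same direction. On 1439332_at the signal was 39.6, 26.4 and 49.0 in the wild types and 116, 145 and 109 in the heterozygotes, a log2 difference of 1.67 (SE 0.23). On the dimmest, 1451751_at, it was 12.1, 21.2 and 7.20 against 64.0, 65.5 and 56.4, a difference of 2.15 (SE 0.35). Both kept the genotypes apart. Only 1 of the 3 wild-type signals on the dimmest probe set exceeded the highest bacterial control signal of its own array, whereas all 3 heterozygous signals did, so the size of that difference is the least certain of the 3. With signals below the control raised to it, the difference was 1.93. The wild types were ordered differently by the 3 probe sets: embryo 2 was highest on 1444139_at and on 1451751_at and lowest on 1439332_at. The 3 probe sets ordered the heterozygotes alike, with embryo 2 highest, embryo 1 next and embryo 3 lowest. Some of these gaps were small, with 65.5 and 64.0 in embryos 2 and 1 on 1451751_at. On 1439332_at, embryos 1 and 3 were at 116 and 109, so little is read from the shared order.

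Lrrfip1 was bright and differed by a smaller amount with little spread. On its brightest probe set (1433842_at) the signal was 1014, 983 and 1037 in the wild types and 1483, 1673 and 1483 in the heterozygotes. The groups were separated by a gap of 1.43-fold between the highest wild type and the lowest heterozygote. The means were 1011 ± 27.1 and 1546 ± 110 (SD, n = 3 per genotype), a log2 difference of 0.61 (SE 0.08), or 1.53-fold. The residual SD of this probe set, the spread left within genotypes, was 0.08 on the log2 scale, and 8.24% of all tested probe sets had a smaller one. Among the 1453 probe sets within 0.5 of its mean log2 signal, 28.8% had a smaller one. The genes were chosen for a rise with genotype, and a choice that weighed it against the spread would favour a small spread. Nothing is therefore read from these shares.

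The 3 probe sets of Lrrfip1 did not give the same difference. On 1437477_at the signal was 101, 108 and 87.9 in the wild types and 158, 161 and 141 in the heterozygotes, a log2 difference of 0.63 (SE 0.14) without overlap, close in size to the brightest one. On 1448487_at it was 76.4, 76.3 and 80.3 against 81.1, 74.4 and 71.1, with overlapping groups and a log2 difference of -0.04 (SE 0.15). All 6 signals on 1448487_at were above the bacterial controls of their arrays, and its residual SD of 0.07 was smaller than that of 1433842_at. The files do not place the probe sets on transcripts, so whether they report different transcript forms is not known here. RefSeq lists more than 1 start for the gene, as in the windows printed above.

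Ifrd1, with its single probe set (1416067_at), had signals of 778, 846 and 772 in the wild types and 1131, 1293 and 1327 in the heterozygotes. The lowest heterozygote was 1.34-fold above the highest wild type. The means were 799 ± 40.9 and 1251 ± 105 (SD, n = 3 per genotype), a log2 difference of 0.64 (SE 0.09), or 1.56-fold. With 1 probe set, there is no second measurement of this gene on the array.

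Across the 3 genes, 6 of 7 probe sets were higher in every heterozygote than in every wild type. Over all 27022 probe sets tested, 6% separated the genotypes in this direction, and since the genes were picked from this contrast nothing is read from the comparison. Of the 6 probe sets that were apart, Ddit4l 1451751_at passed the filter on low signals through its heterozygotes only. A limma call, an adjusted p under 0.05 and a higher signal in heterozygotes, held for 0.0777% of probe sets, which stood for 15 named genes. A Ddit4l probe set (1439332_at, 38.3 in wild types and 124 in heterozygotes on average) and one of Phlda3 (61.4 and 152) lay just inside that call. Probe sets of Aen (432 and 716) and Exoc4 (239 and 405) lay just outside.

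**Figure D1:**
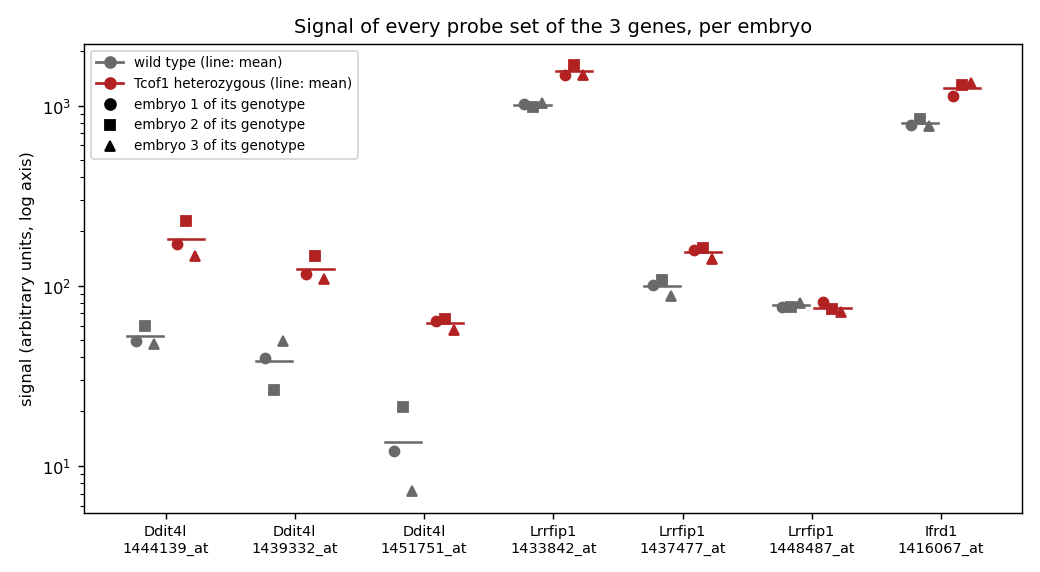
Signal of each of the 7 probe sets in each embryo, in arbitrary units on a log axis, with wild types in grey, Tcof1 heterozygotes in red, a marker shape for each embryo number and a line at each mean of 3. The genotypes are apart for 6 probe sets and overlap for Lrrfip1 1448487_at, at 76.3 to 80.3 and 71.1 to 81.1.

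The differences were also taken within each scan day, which held 2 embryos of each genotype on the first day and 1 of each on the second. For the brightest Ddit4l probe set the log2 difference was 1.82 on the first day and 1.58 on the second. On 1439332_at it was 1.94 and 1.13. On 1451751_at it was 1.89 and 2.68, but the second value rests on a wild-type signal of 7.20, below the bacterial control of its array. With signals below the control raised to it, the differences on 1451751_at were 1.82 and 2.14, so the sizes on the 2 days are not compared for this probe set. Lrrfip1 differed by 0.66 and 0.52 on its brightest probe set, 0.60 and 0.67 on 1437477_at, and 0.02 and -0.17 on 1448487_at, while Ifrd1 differed by 0.58 and 0.78. The 6 probe sets that kept the genotypes apart were higher in heterozygotes on both days, which that separation fixes in advance. How the rise was judged when the genes were chosen is not stated. A change between days adds to the spread within genotypes, so a choice that weighed the rise against that spread favoured small changes. The fit below is therefore a description. In a limma fit with genotype, scan day and their product over all probe sets, 0 of 7 probe sets passed (adjusted p from 0.970 to 0.997, smallest unadjusted p = 0.116), against 0.00370% of all tested. The largest of the 7 changes between days in size was -0.82 (SE 0.46), for Ddit4l 1439332_at. The second day held 1 embryo per genotype, so a p that misses the threshold here does not show that the days were alike.

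Levels of the 3 genes on the scan days were compared in a second fit with genotype and scan day. A scan day effect also adds to the spread within genotypes, so this fit too is a description. None of the 7 probe sets passed in limma (each adjusted p was 0.9999, with 0 of 7 at an unadjusted p under 0.05), nor did any of the 27022 tested (0%, and 801 at an unadjusted p under 0.05). The estimates for second minus first day ran from -0.59 (SE 0.33) for Ddit4l 1451751_at, the probe set with wild types below the bacterial controls, to 0.16 (SE 0.26) for Ddit4l 1439332_at.

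Cdkn1a, which encodes the cell cycle inhibitor p21, and Ccng1, which encodes cyclin G1, are p53 targets that were set beside the 3 genes embryo by embryo. Cdkn1a on its brightest probe set was 58.6, 67.2 and 90.2 in the wild types and 535, 942 and 509 in the heterozygotes. Ccng1 was 482, 495 and 498 against 2522, 3492 and 2507. Heterozygous embryo 2 was the highest for both. Relative to the wild-type mean, Cdkn1a was 7.38-fold, 13.0-fold and 7.02-fold higher in heterozygous embryos 1, 2 and 3, and Ccng1 was 5.12-fold, 7.08-fold and 5.08-fold higher.

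Ddit4l was also highest in embryo 2, at 3.20-fold, 4.25-fold and 2.74-fold in heterozygous embryos 1, 2 and 3. Embryos 1 and 3 were close for Ccng1 and Cdkn1a, and their order turned between probe sets: embryo 3 was above embryo 1 on Cdkn1a 1421679_a_at and Ccng1 1450017_at, and below it on the other 3 probe sets of these genes. Lrrfip1 was highest in embryo 2 too, at 1.47-fold, 1.65-fold and 1.47-fold on its brightest probe set, with embryos 1 and 3 level. Its probe set 1437477_at gave 1.59-fold, 1.62-fold and 1.42-fold, with embryo 1 close to embryo 2 and embryo 3 lowest. Ifrd1 differed in its highest embryo: embryo 3 was highest at 1.66-fold, embryo 2 was at 1.62-fold and embryo 1 was lowest at 1.42-fold. The smallest fold of Ddit4l in any heterozygote, 2.74, was thus above the largest of Lrrfip1 or Ifrd1, and below the smallest of Ccng1 or Cdkn1a on their brightest probe sets. The second probe set of Cdkn1a gave smaller folds, 3.00, 5.56 and 3.09. Ddit4l 1439332_at gave 3.02, 3.76 and 2.85, and the dimmest, 1451751_at, gave 4.60, 4.71 and 4.07. The ranking of Ddit4l against Cdkn1a thus depends on the probe set. The folds on 1451751_at rest on wild-type signals of which only 1 of 3 was above the bacterial control of its array. On Lrrfip1 1448487_at embryo 1 was the highest, at 1.04-fold, with embryos 2 and 3 at 0.96-fold and 0.92-fold. With 3 heterozygotes that form a cluster apart from the wild types, no correlation between genes was computed.

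Heterozygous embryo 2 also had the smallest summed signal of 4 yolk sac endoderm markers, 638 against 7127 and 11753 in embryos 3 and 1. Heterozygous embryo 1 had the smallest summed signal of 4 primitive erythroid markers, 203 against 3092 and 5655 in embryos 2 and 3. The part of these tissues in the order of the heterozygotes was not tested.

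**Figure D2:**
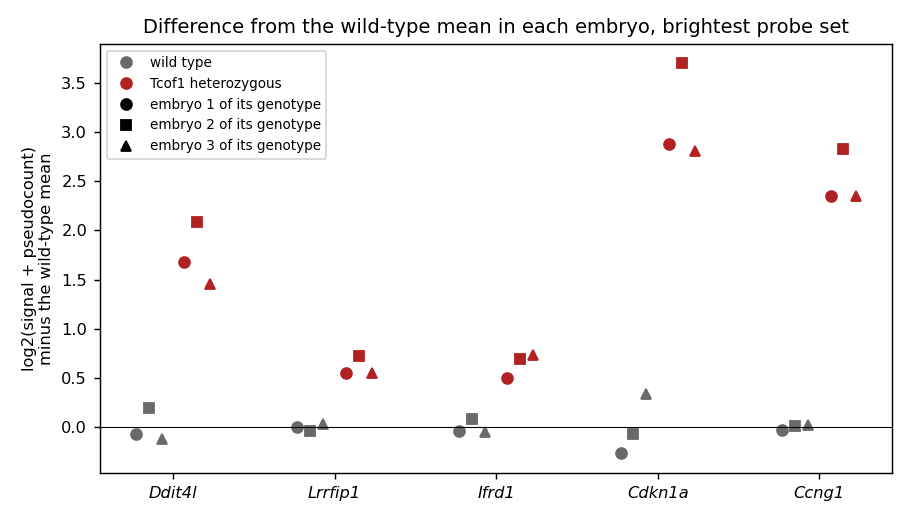
Difference from the wild-type mean on the log2(signal + 1.87) scale in each embryo, on the brightest probe set of each gene, with wild types in grey, heterozygotes in red and a marker shape for each embryo number. Embryo 2 is the highest heterozygote for Ddit4l (2.09), Lrrfip1 (0.73), Cdkn1a (3.70) and Ccng1 (2.82), and embryo 3 for Ifrd1 (0.73).

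The likeness of other genes to each of the 3 was measured as the root mean square difference between log2 profiles over the 6 arrays, each centred on its own mean, so that a small value means the same shape and the same size of change. Because the 3 genes were chosen for a rise with genotype, genes near them share that rise by construction, and the distances are a description. The genes nearest to Ddit4l were Slc19a2 (0.18), a thiamine transporter gene, Dcxr (0.22), of dicarbonyl and xylulose reduction, Cdkn1a on its second probe set (0.22), Pmaip1 (0.22), which encodes the pro-apoptotic protein Noxa, and Trp53inp1 (0.23), a p53-induced nuclear protein gene. Slc19a2 was 141, 113 and 100 in the wild types and 375, 443 and 314 in the heterozygotes, with the heterozygotes in the order of Ddit4l. The other probe sets of Ddit4l lay further away than these 5 genes, at 0.35 and 0.39, and Ccng1 lay at 0.40. The brightest probe set of Cdkn1a, the one used for the comparison by embryo, lay at 0.74, with 1200 tested probe sets nearer.

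For Lrrfip1 the nearest were Irf2bp2 (0.06), a transcriptional corepressor gene, Isl1 (0.07), a homeobox gene of heart progenitors and motor neurons, Nsun6 (0.07), an RNA methyltransferase gene, Aen (0.07), a p53-induced nuclease gene, and Plxdc2 (0.08). Isl1 was 98.8, 91.6 and 98.2 in the wild types and 136, 141 and 135 in the heterozygotes. Ifrd1 lay at 0.10 from Lrrfip1, with 17 tested probe sets nearer.

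The genes nearest to Ifrd1 were Syt17 (0.05), a synaptotagmin gene, Aen on another probe set (0.08), Traf4 (0.09), a signalling adaptor gene, Ddx23 (0.09), of the spliceosome, and Irf2bp2 (0.10). Syt17 was 33.4, 37.3 and 33.2 in the wild types and 52.1, 53.3 and 58.6 in the heterozygotes, with embryo 3 highest as for Ifrd1. Aen and Irf2bp2 stood in the nearest 5 of both Lrrfip1 and Ifrd1. When each profile was also divided by its SD, so that shape alone counted, 0 of the 5 genes stayed for Ddit4l, 0 for Lrrfip1 and 1 for Ifrd1, so these names depend on the measure.

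**Figure D3:**
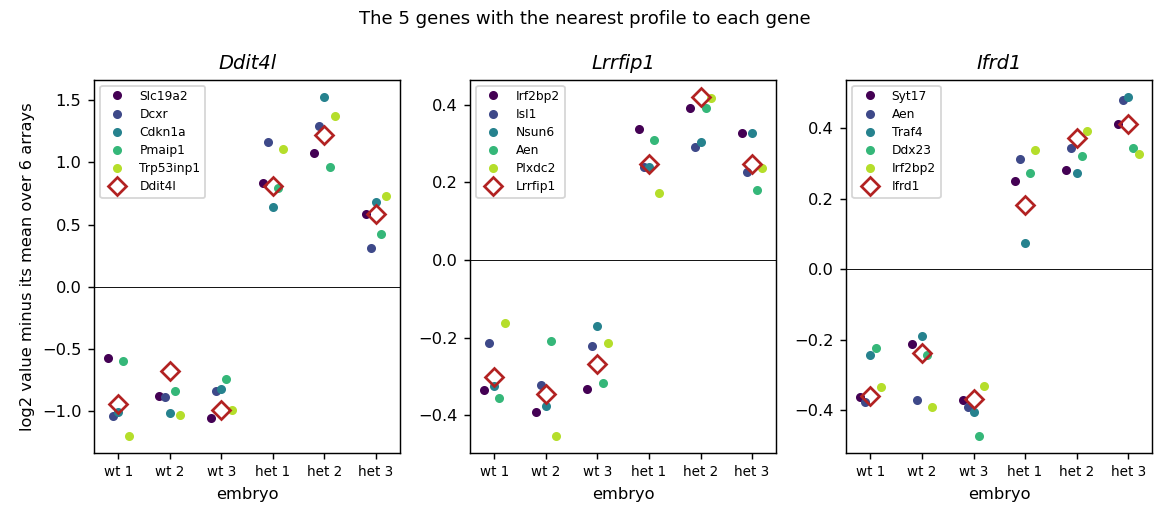
Log2 value minus its mean over the 6 arrays for Ddit4l, Lrrfip1 and Ifrd1 (open red diamonds, brightest probe set) and the 5 genes nearest to each (coloured circles), with the 3 wild-type (wt) and 3 heterozygous (het) embryos along the axis. Heterozygous embryo 2 is the highest of Ddit4l and Lrrfip1, and embryo 3 of Ifrd1.

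The closest relatives of the 3 genes were not called in limma. Ddit4 was 434, 224 and 311 in the wild types and 742, 273 and 444 in the heterozygotes, with overlapping groups (log2 difference 0.52, SE 0.33, adjusted p = 0.845). Its highest signal was in heterozygous embryo 1, whereas Ddit4l was highest in embryo 2. Lrrfip2 on its brightest probe set was 368 ± 32.3 against 371 ± 17.2 (SD, n = 3 per genotype), a difference of 0.02 (SE 0.10, adjusted p = 0.983). Flii, the partner after which both Lrrfip genes are named, was 333 ± 28.6 against 333 ± 22.4 on its brightest probe set. A second probe set of Flii was lower in all 3 heterozygotes, at 245 to 320 against 328 to 392 (log2 -0.34, SE 0.13, adjusted p = 0.771), and the remaining one was too dim to be tested. Ifrd2, the paralogue of Ifrd1, was 192 ± 19.4 against 181 ± 20.5 (log2 -0.09, SE 0.13, adjusted p = 0.921).

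Other genes of mTOR signalling gave no call. In simulated data the genotype fit called 16.4% of changes of 1.5-fold and 40.4% of changes of 2-fold. The absence of a call, here and in the lists below, thus does not show that a gene was unchanged. Of 50 genes in the list, which leaves out Ddit4l, 46 had a probe set and were tested, and 0 were higher and 0 lower in limma at an adjusted p under 0.05 against 0.0777% and 0.00370% of all tested probe sets. At an unadjusted p under 0.05, 3 were higher and 1 lower, where 3.01% and 3.21% of all tested probe sets were. The genotypes did not overlap for 7 genes that were higher and 2 that were lower in heterozygotes, against 6% and 6.18% of all tested probe sets. The differences were positive for 22 and negative for 24, with a median of -0.03, where all tested probe sets had a median of 0.00471 and 50.9% positive. Sesn2, which encodes a stress-induced inhibitor of mTOR complex 1, had the smallest p, at 77.5 ± 14.3 against 179 ± 50.8 (SD, n = 3 per genotype), a log2 difference of 1.16 (SE 0.23, adjusted p = 0.262). Its wild types, at 61.3 to 88.3, did not overlap its heterozygotes, at 121 to 213. Mapkap1, which encodes the mTOR complex 2 subunit Sin1, was next, at 275 ± 47.6 against 399 ± 47.4 (log2 0.54, SE 0.14, adjusted p = 0.584). Tsc1 (0.05), Tsc2 (-0.12), Rheb (0.01), Mtor (0.13) and Rptor (-0.16), the core through which Ddit4l acts, were named after their values were seen and did not pass, with adjusted p from 0.848 to 0.987.

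The genes around Lrrfip1 and Ifrd1 and the integrated stress response, the programme driven by the transcription factor ATF4, gave no call either. In the list of Lrrfip and Flii partners 20 of 25 genes were tested and 5 were too dim. Of the 20, 0 were called higher and 0 lower in limma (0 and 1 at an unadjusted p under 0.05), 10 were positive and 10 negative, and the median was -0.01, a value whose sign turned with 1 array left out (-0.050 to 0.033). The genotypes were apart for 2 genes, both higher in heterozygotes, where 6% of all tested probe sets were apart in that direction and 6.18% in the other. At an unadjusted p under 0.05 in limma, 3.01% of all tested probe sets were higher and 3.21% lower. The smallest p belonged to Irf3, which encodes an interferon regulatory factor (-0.31, SE 0.12, adjusted p = 0.774), followed by the growth factor gene Pdgfa (0.19, SE 0.10, adjusted p = 0.823). In the list of Ifrd1 partners and family 18 of 24 genes were tested and 6 had no probe set of their own. None was called (0 in either direction at an unadjusted p under 0.05 in limma), 7 were positive and 11 negative, and the median was -0.03 (0.0037 with all tested probe sets of a gene averaged). The genotypes overlapped for all 18, where 6% of all tested probe sets were apart and higher and 6.18% apart and lower. The smallest p belonged to the muscle transcription factor genes Pax7 (-0.61, SE 0.31) and Myod1 (-0.91, SE 0.47), both with an adjusted p of 0.810.

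In the integrated stress response list 27 of 30 genes were tested, 2 were too dim and 1 had no probe set of its own. Again 0 were called higher and 0 lower in limma (0 in either direction at an unadjusted p under 0.05). The differences were positive for 7 and negative for 20, with a median of -0.08. That median was -0.053 without heterozygous embryo 3 and -0.041 with all tested probe sets of a gene averaged. The genotypes were apart for 1 gene, which was lower in heterozygotes, where 6.18% of all tested probe sets were apart in that direction and 6% in the other. Of all tested probe sets, 3.01% were higher and 3.21% lower at an unadjusted p under 0.05 in limma. The amino acid transporter gene Slc7a5 (-0.28, SE 0.16, adjusted p = 0.824) and Eif2ak3, which encodes the kinase PERK (-0.18, SE 0.11, adjusted p = 0.840), had the smallest p.

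**Figure D4:**
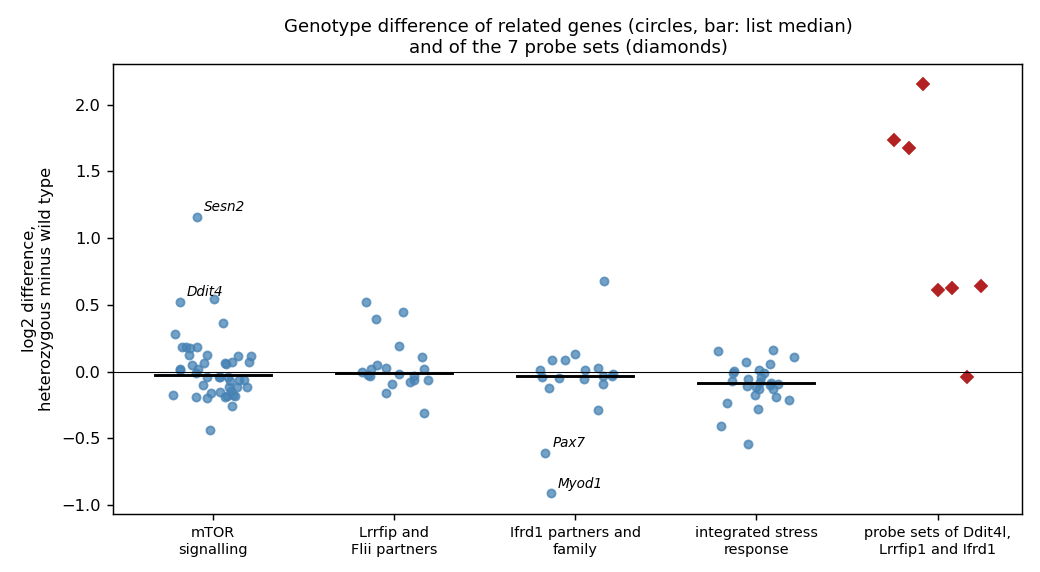
Log2 difference between heterozygous and wild-type embryos for each tested gene of the 4 lists (circles, brightest probe set, with a bar at the list median) and for the 7 probe sets of Ddit4l, Lrrfip1 and Ifrd1 (diamonds). The list medians lie between -0.08 and -0.01, Sesn2 is the highest gene of the lists at 1.16, and 6 of the 7 diamonds lie at 0.61 or above.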

How the data were processed

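RNA of single embryos (100 ng) was amplified and labelled in 2 cycles, per the labels' protocols. Values are linear intensities that the authors deposited after GCOS, per the submitters' processing notes, with the signal algorithm not stated there. Deposited intensities had equal trimmed means on every array, found from the values. Scan day and module were read per the file headers.

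The file held 45101 probe sets, of which 64 controls were left out. Values became log2(signal + 1.87), where 1.87 is the 10th percentile. The 40% with the lowest mean were left out (below a signal of about 13.2) and 27022 were tested with limma 3.58.1 in R 4.3.3 (intensity trend, two-sided, Benjamini-Hochberg over all tested probe sets at 0.05). Standard errors are from this fit. The design text calls the embryos littermates without saying from how many litters, so p-values measure the spread between these embryos; 3 arrays per genotype limit the precision. Background was the highest of 27 bacterial control probe sets per array, 8.55 to 13.5. Detection calls and probe-level files were not used here. Symbols came from the platform annotation, of which the RefSeq table of GRCm38.p6 changed 0.

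The genes named were the 3 genes, Cdkn1a, Ccng1, Tcof1, the relatives Ddit4, Lrrfip2, Flii and Ifrd2, the 2 genes with the smallest p of each list and the 5 nearest profiles of each gene; other names were picked with their values known, Aen, Exoc4 and Phlda3 at the threshold among them. The genes and lists were chosen with earlier results of these data known. The genotype fit and the genotype by scan day fit were tested on simulated data whose variances were drawn from the prior that limma fitted. False calls were 3.565% of 533 calls for genotype, under the threshold. They were 5.479% of 73 calls for genotype by scan day, above it. An earlier version with the fitted variances held fixed gave more false calls than the threshold allows for both fits. The version kept follows limma's own model of variances, so its shares do not test that model. Alternatives were other pseudocounts (1 and 7.03), quantile normalization, equal medians, other filters, no trend, array weights, blocks by replicate number or scan day, and each array left out. Figures used matplotlib 3.10.9.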

Additional observations from a re-analysis of the deposited data

How the results depend on the processing

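The log2 differences of the 7 probe sets moved by less than the spread between replicates under 2 other pseudocounts, quantile normalization, equal array medians, array weights and every array left out. In this balanced design a block by replicate number or scan day cannot move them. With 1 array left out the brightest probe sets ranged from 1.56 to 1.88 for Ddit4l, 0.55 to 0.64 for Lrrfip1 and 0.60 to 0.71 for Ifrd1. Lrrfip1 1448487_at ranged from -0.09 without heterozygous embryo 1 to 0.00096 without heterozygous embryo 3. The dimmest Ddit4l probe set ranged from 1.80 to 2.23 over the other settings. The limma call for genotype was less steady. Of 22 probe sets called by limma, 10 were called with the replicate block, 14 with scan day as a block and 0 without the intensity trend (1571 at an unadjusted p under 0.05). Of the 3 genes, 1 had a called probe set with either block and 1 with equal array medians. Without wild-type embryo 1 (8 calls in all) or wild-type embryo 3 (11 calls), 0 of the 3 had one; without heterozygous embryo 2 (12 calls) or 3, or wild-type embryo 2 (11 calls), 1 had one, and without heterozygous embryo 1, 2 had one. Deviations of same-numbered embryos from their genotype means correlated at -0.079, -0.11 and -0.024, below those of different numbers, at -0.0053 to 0.082. Deviations from a mean of 3 are bound to each other, so these values cannot show whether the embryos were paired. With the replicate block, whose estimates equal those without it (1.74 for the brightest Ddit4l probe set), only the error and the calls could change. All counts of called list members stayed at 0 under every alternative. With 1 array left out the list medians ranged from -0.026 to -0.0019 (mTOR), -0.050 to 0.033 (Lrrfip and Flii partners), -0.056 to -0.0064 (Ifrd1 partners) and -0.093 to -0.053 (integrated stress response). With all tested probe sets of a gene averaged they were -0.011, -0.0027, 0.0037 and -0.041. For equal array medians, which moved the median change between days over all probe sets from 0.0073 to -0.12, the change of Lrrfip1 1437477_at reversed to -0.064, and the scan day effect of Ifrd1 reversed to -0.070. With 1 array left out the scan day effect ranged from -0.24 to 0.57 for Ddit4l 1439332_at, -0.087 to 0.054 for Lrrfip1 1433842_at, -0.12 to 0.071 for Lrrfip1 1448487_at and -0.071 to 0.13 for Ifrd1; none passed. The change between days has no value with an array of the second day left out and was not refitted with others left out. The dimmest Ddit4l probe set was not tested with the filter at 60%.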
